A study of Mus musculus with 4 samples.

Results

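The mitochondrial ribosomal protein genes of mouse LSK cells were examined here, chosen by symbol alone as genes named Mrpl or Mrps followed by a number. In all, 79 symbols of the expression table matched. The pseudogene Mrpl23-ps1 was left out, and Mrpl53 was left out because its mean over the 4 libraries was 3.03 normalized counts, under the minimum of 10. This left 77 genes, 48 of the large subunit (Mrpl) and 29 of the small subunit (Mrps), among 14858 genes tested and 18598 listed. LSK cells, sorted from bone marrow as lineage-negative, SCA-1-positive and c-KIT-positive, include the hematopoietic stem cells and early progenitors. The Bptf cKO mice were Bptf f/f;Mx1-cre animals in which pIpC, a synthetic double-stranded RNA that sets off an interferon response, had switched on cre, and the controls were Bptf f/f mice without cre that also received pIpC. All mice were C57BL/6 and about 3 months old, and each of the 2 libraries per genotype came from LSK cells of 5 pooled mice, 10 days after cre had been induced. Mx1-cre acts wherever interferon is sensed, so deletion was not limited to LSK cells, and the floxed segment is exon 2 of Bptf, so that transcripts of the remaining exons can still be counted. In RNA from a whole sorted population, fewer cells that make a transcript and less of it per cell cannot be told apart.

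The mitochondrial ribosome translates the messages of mitochondrial DNA, which code for core subunits of the respiratory chain and of ATP synthase. Its small subunit binds and decodes the message, and its large subunit forms the peptide bond and passes the new chain to the inner membrane. All of its proteins are made from nuclear genes and imported, many of them related to bacterial ribosomal proteins and others found only in mitochondria, while its RNA comes from mitochondrial DNA. Resting hematopoietic stem cells are known for a metabolism that leans on glycolysis, and BPTF is the largest subunit of the chromatin remodeler NURF.

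The genotype and the sort were checked first. Bptf itself was at 5520 and 5850 normalized counts in Bptf f/f replicates 1 and 2 and at 3398 and 3320 in Bptf cKO replicates 1 and 2, a log2 difference of -0.76 (limma SE 0.0898, adjusted p = 0.0439). Kit, which encodes c-KIT, lay between 13634 and 17051 normalized counts in the 4 libraries (log2 difference -0.01), and Ly6a, which encodes SCA-1, between 726 and 1743. Depth, as recovered reads over all listed genes, was 24875746 and 14091054 in the Bptf f/f libraries and 30134742 and 14104526 in the Bptf cKO libraries. Both replicate 2 libraries held Xist (15675 and 11843 normalized counts, against 0.775 and 3.25 in the replicate 1 libraries), Y-linked transcripts and transcripts of pluripotent cells together, with Pou5f1 at 582 and 738 against 0 in both replicate 1 libraries. Results are therefore also given for the replicate 1 libraries alone. Neutrophil and monocyte markers (8 of 8 listed, none at 0) summed to 62611 and 10273 normalized counts in the Bptf f/f libraries and 43072 and 35368 in the Bptf cKO libraries. Erythroid markers (7 of 9 listed, with Hba-a2 at 0 in some library) summed to 692 and 848 against 137 and 275, and 5 of the 6 tested were lower in both Bptf cKO libraries. Whether these cells contributed to the differences below was not tested.

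Most mitochondrial ribosomal protein genes stood slightly higher in Bptf cKO LSK cells, and none of them passed the test. In log2 of the normalized count plus 1, the median difference of the 77 genes was 0.12 with quartiles of 0.00 and 0.23, against 0.00 over all genes tested. The differences ran from -0.20 for Mrpl46 to 0.60 for Mrps6, and 60 of the 77 genes (77.9%) were higher by any amount, beside 50.2% of all genes tested. Both Bptf cKO libraries lay above both Bptf f/f libraries for 35 of the 77 (45.5%), beside 23.2% of all genes tested, and below both for 1, Mrpl46, beside 23.8%. Between the replicate 1 libraries alone, 64 of the 77 were higher in Bptf cKO, beside 49.6% of all genes tested, with a median of 0.17. Between the replicate 2 libraries 47 of the 77 were higher, beside 50.5%, with a median of 0.07.

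None of the 77 genes had a limma adjusted p under 0.05 in either direction, where 0.37% of all genes tested were called higher and 0.37% lower. At an unadjusted p under 0.05, 9 were higher and 0 lower, beside 6.79% and 8.96% of all genes tested. edgeR's quasi-likelihood test on the recovered reads called 0 of the 77 in either direction (0.33% of all genes higher and 0.303% lower), and DESeq2 also called 0 (2.15% and 3.37%). With 2 libraries against 2, 0.333 is the smallest two-sided p that exact permutation can reach for any gene.

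The level of the whole set also differed between libraries of the same genotype. Summed over the 77 genes, normalized counts were 57096 and 63617 in Bptf f/f and 64207 and 67282 in Bptf cKO, so the sums did not overlap, but Bptf f/f replicate 2 came closer to Bptf cKO replicate 1 than to Bptf f/f replicate 1. The share of each library's listed reads on these genes was 0.296% and 0.326% in Bptf f/f and 0.328% and 0.338% in Bptf cKO. Bptf f/f replicate 1 was the lowest of the 4 libraries for 54 of the 77 genes, and Bptf cKO replicate 2 was the highest for 36. Replicate 2 exceeded replicate 1 for 63 of the 77 genes in Bptf f/f, with a median log2 difference of 0.16, which is larger than the median difference between the genotypes. The median over the 77 genes was 0.06 without Bptf f/f replicate 1 and 0.22 without Bptf f/f replicate 2, and it was 0.17 and 0.10 without Bptf cKO replicates 1 and 2.

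**Figure D1:**
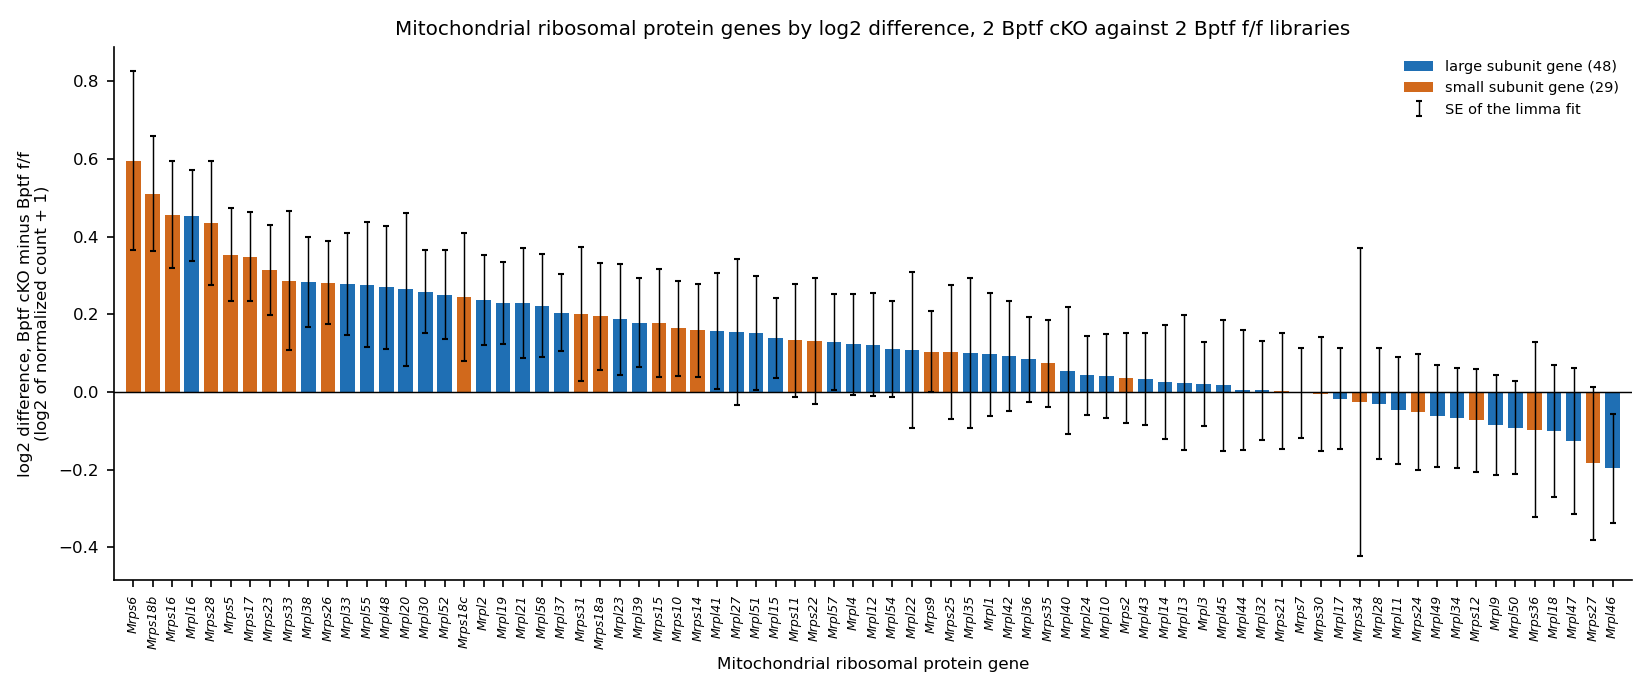
Log2 difference between Bptf cKO and Bptf f/f (vertical axis, log2 of the normalized count plus 1) for each of the 77 genes, sorted along the horizontal axis, with bars for large (blue) and small (orange) subunit genes and lines for the standard error of the limma fit, n = 2 libraries per genotype. The bars run from 0.60 for Mrps6 to -0.20 for Mrpl46, 60 of them stand above 0, and 7 of the 8 tallest belong to small subunit genes.

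The 8 genes with the largest difference among those whose libraries did not overlap were Mrps6, Mrps18b, Mrps16, Mrpl16, Mrps28, Mrps5, Mrps17 and Mrps23, of which 7 encode small subunit proteins. Mrps6 encodes the counterpart of bacterial S6, a protein of the platform of the small subunit. It was at 265 and 394 normalized counts in Bptf f/f and 459 and 521 in Bptf cKO (log2 difference 0.60, limma SE 0.23, adjusted p = 0.308). The gap between its Bptf f/f libraries was 0.57 on the log2 scale, nearly the size of the difference, which was 0.31 without Bptf f/f replicate 1. Mrps6 lies at chr16:92058270-92112227 (GRCm38, plus strand), and 19.9% of its exonic bases are also annotated to Slc5a3, a myo-inositol transporter gene on the same strand, or to Gm49711. Reads on those bases cannot be told apart by gene. Slc5a3 had a log2 difference of 0.25 (adjusted p = 0.464 in limma).

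Mrps18b, 1 of 3 mammalian relatives of bacterial S18, had the second largest difference and the tighter replicates. Its values were 300.0 and 319 normalized counts in Bptf f/f and 427 and 456 in Bptf cKO, that is 309 ± 13.3 against 441 ± 20.3 (SD, n = 2), a 1.43-fold difference (log2 0.51, limma SE 0.15, adjusted p = 0.209). The lowest Bptf cKO library was above the highest Bptf f/f library by more than the gap within either genotype. The gene lies at chr17:35910379-35916389 on the minus strand, and 30.5% of its exonic bases are overlapped by the antisense transcript Gm16279. Mrps16, the counterpart of bacterial S16 and needed for assembly of the small subunit, was at 660 and 757 in Bptf f/f and 909 and 1034 in Bptf cKO (log2 0.46, limma SE 0.14, adjusted p = 0.223). Mrpl16, which lies next to the tRNA binding sites and the peptidyl transferase center of the large subunit, was at 633 and 685 in Bptf f/f and 905 and 899 in Bptf cKO (log2 0.45, limma SE 0.12, adjusted p = 0.179). Its Bptf cKO libraries were nearly equal. Of the 48 large subunit genes, Mrpl16 had the largest difference, and no other had an unadjusted limma p under 0.05. Neither Mrps16 (chr14:20389304-20393634, minus strand) nor Mrpl16 (chr19:11770391-11774960, plus strand) shares exonic bases with another annotated gene.

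The next 4 were likewise free of exon overlap. Mrps28, a small subunit protein, was at 502 and 585 normalized counts in Bptf f/f and 667 and 804 in Bptf cKO (log2 0.44, limma SE 0.16). Mrps5, the counterpart of bacterial S5 at the message entry site, was at 1129 and 1173 against 1365 and 1583 (log2 0.35, limma SE 0.12). In Mrps5 the Bptf f/f libraries were close together and both Bptf cKO libraries were well above them. Mrps17, the counterpart of bacterial S17, an RNA-binding protein, was at 1212 and 1339 against 1545 and 1703 (log2 0.35, limma SE 0.11). Mrps23, a mitochondria-specific protein of the small subunit, was at 1079 and 1215 against 1476 and 1374 (log2 0.31, limma SE 0.12). Limma adjusted p-values of these 4 genes were 0.290, 0.259, 0.252 and 0.293. Among the rest, Mrps33 stood just outside these 8 at 0.29, close to Mrps23 at 0.31. Mrps26, at 0.28, completed the 9 genes with an unadjusted limma p under 0.05.

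**Figure D2:**
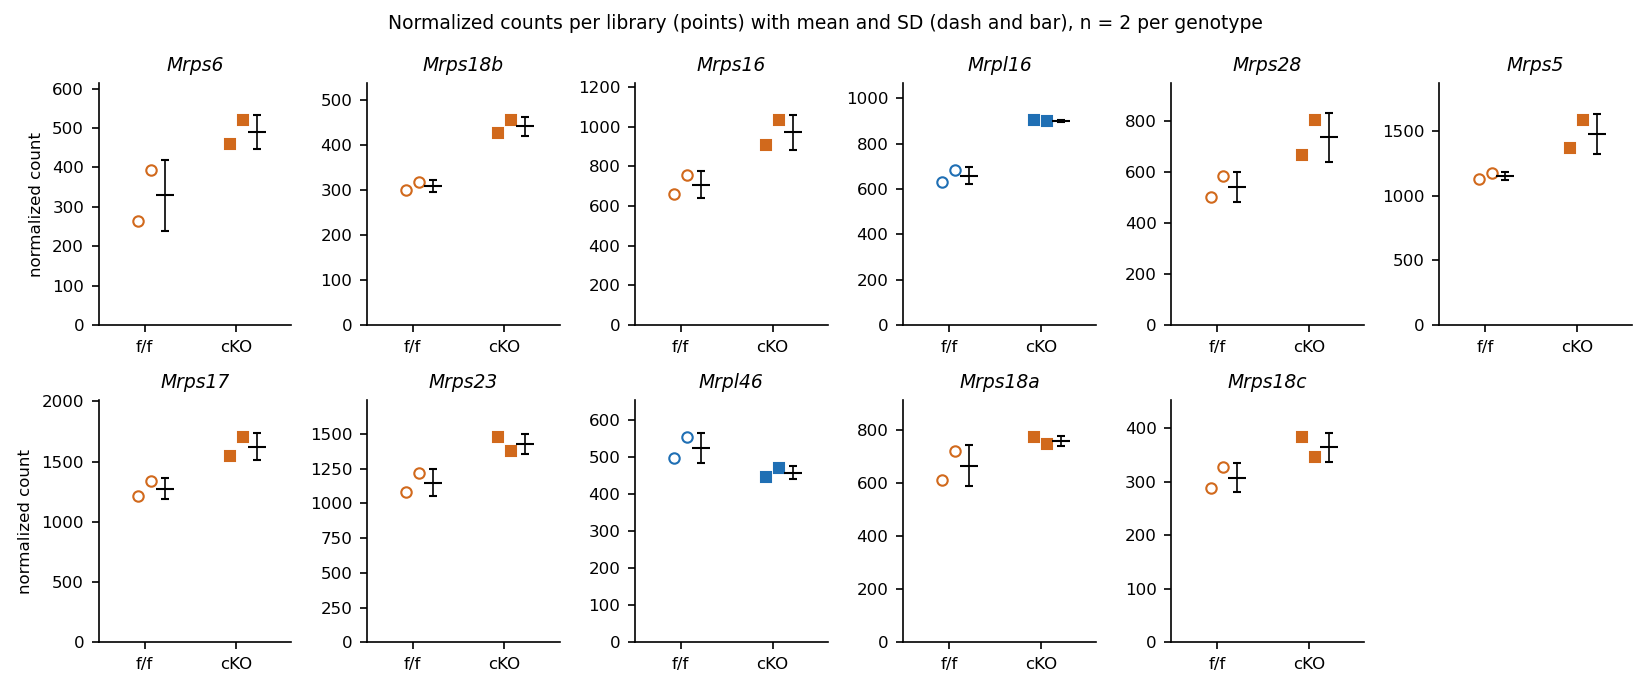
Normalized counts (vertical axes, from 0) of 11 genes in the Bptf f/f (open circles) and Bptf cKO (filled squares) libraries, with the mean and SD of each genotype as a dash and bar, n = 2, blue for large and orange for small subunit genes. In each panel the 2 Bptf cKO libraries lie on one side of both Bptf f/f libraries, above them for all but Mrpl46, whose values were 496 and 553 against 445 and 470.

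Only for Mrpl46, a protein of the central protuberance of the large subunit, did both Bptf cKO libraries fall below control, at 445 and 470 normalized counts against 496 and 553 (log2 difference -0.20, limma SE 0.14, adjusted p = 0.574). The gene shares 12.2% of its exonic bases with Mrps11, which starts on the opposite strand, and Mrps11 was at 401 and 420 in Bptf f/f and 424 and 477 in Bptf cKO (log2 0.13). The remaining genes of the 35 whose Bptf cKO libraries both lay above control ran from 0.07 (Mrps35) to 0.29 (Mrps33). The least precise member was Mrps34, at 181 and 119 against 199.5 and 104 (log2 -0.03, limma SE 0.40), with both replicate 2 libraries well below both replicate 1 libraries. It also had the fewest reads, down to 74 in a library. Of the exonic bases of Mrps34, 77.8% are also annotated to Mapk8ip3 on the opposite strand or Nme3 on the same strand, so its level is uncertain. Mrps27, which had the second lowest difference (-0.18), was at 554 and 786 against 563 and 600, so its libraries overlapped.

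The subunits were then compared. The median log2 difference was 0.10 over the 48 large subunit genes and 0.16 over the 29 small subunit genes, a gap of -0.05 (large minus small). Of the large subunit genes, 38 were higher and 10 lower in Bptf cKO, and 19 had both Bptf cKO libraries above both Bptf f/f libraries (39.6%). Of the small subunit genes, 22 were higher and 7 lower, and 16 had both Bptf cKO libraries above (55.2%). Over all genes tested, 50.2% were higher, and 23.2% had both Bptf cKO libraries above. The 9 genes with an unadjusted limma p under 0.05 comprised 8 small and 1 large subunit gene. All 9 were higher, and 6.79% of all genes tested were higher at that level. Normalized counts summed to 38032 and 42344 over large subunit genes in Bptf f/f and 41862 and 44048 in Bptf cKO, so the genotypes overlapped. For small subunit genes the sums were 19064 and 21273 against 22346 and 23234 and did not overlap.

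The ratio of the large to the small subunit sum was 1.99 in both Bptf f/f libraries and 1.87 and 1.90 in the Bptf cKO libraries. The ratios differed by more than the gap within either genotype, and the exact permutation test gave its smallest possible two-sided p of 0.333. Both sums follow gene symbols, so Mrps18a, Mrps30 and Mrps36 count as small although their products are placed elsewhere. They also leave out 5 mitoribosome genes with other symbols, which summed to 5853 and 7129 in Bptf f/f and 6126 and 6469 in Bptf cKO. A ratio with those genes placed by subunit was not computed, so the separation is shown only for sums by symbol. Leaving out a library moved the gap between the subunit medians to between -0.07 and -0.02, the latter without Bptf cKO replicate 1 (-0.0243), and it was -0.0231 between the replicate 1 libraries alone. With GC content and length regressed out of each library the gap was -0.0151.

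**Figure D3:**
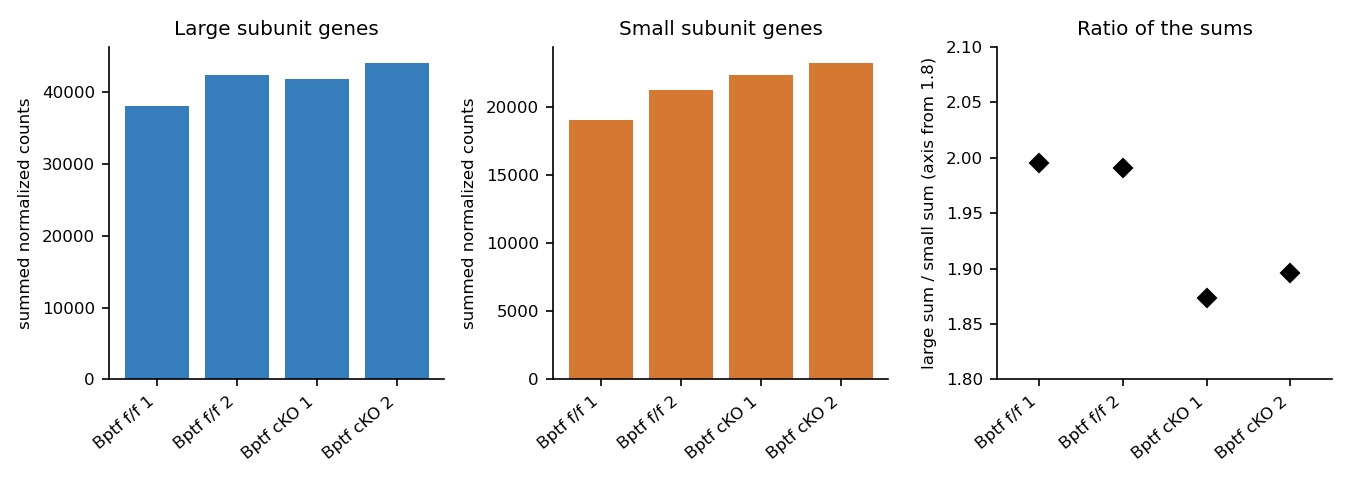
Summed normalized counts of the 48 large (left) and 29 small (middle) subunit genes in each library, as bars from 0, and the ratio of both sums (right, axis from 1.8). The small subunit sums of the Bptf cKO libraries, 22346 and 23234, exceed those of both Bptf f/f libraries, and the ratios of 1.87 and 1.90 lie below 1.99.

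The genes were split by a fixed list of bacterial counterparts, and genes outside it are called mitochondria-specific here, with Mrps18a, Mrps30 and Mrps36 set apart. Both kinds had medians close together. In the large subunit the median log2 difference was 0.10 over 29 genes with a bacterial counterpart and 0.13 over 19 mitochondria-specific genes. In the small subunit it was 0.16 over 16 and 0.17 over 10. Without Bptf f/f replicate 1 these 4 medians were 0.00, 0.06, 0.10 and 0.16, and without Bptf f/f replicate 2 they were 0.16, 0.22, 0.22 and 0.27. By position in the ribosome, the small subunit platform had the highest median, 0.21, with 6 of 6 genes higher, from 0.00 to 0.60. Of these, 4 (Mrps6, Mrps18b, Mrps18c and Mrps11), or 66.7%, had both Bptf cKO libraries above both Bptf f/f libraries. That compares with 45.5% of the 77 genes and 23.2% of all genes tested. The group holds Mrps6 and Mrps18b, the genes with the largest differences. The platform median was 0.13 and 0.32 without Bptf f/f replicates 1 and 2. The head and decoding site of the small subunit had a median of 0.05 with 3 of 6 higher, and 0.11 without Bptf f/f replicate 2. In the large subunit the medians were 0.15 for the central protuberance (5 of 7 higher), 0.10 for the stalks (4 of 5) and 0.03 for the rim of the exit tunnel (4 of 6). Without Bptf f/f replicate 1 the stalk and exit tunnel medians were -0.01 and -0.10, and the central protuberance median was 0.00, which was 0.05 without Bptf cKO replicate 2. Without Bptf f/f replicate 2 the stalk, exit tunnel and central protuberance medians were 0.16, 0.11 and 0.23.

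All 3 S18 paralogs lay above control in both Bptf cKO libraries, as did 23.2% of all genes tested. Bacteria have a lone S18 protein, and of its mammalian relatives the products of Mrps18b and Mrps18c sit in the small subunit whereas that of Mrps18a sits in the large subunit despite its name. Mrps18c was at 288 and 327 normalized counts in Bptf f/f and 383 and 346 in Bptf cKO (log2 0.24, limma SE 0.16, adjusted p = 0.546). Of the exonic bases of Mrps18c, 23.2% are also annotated to Gm43511 on the same strand. Mrps18a was at 612 and 722 against 774 and 748 (log2 0.19, limma SE 0.14, adjusted p = 0.567). In both genes Bptf f/f replicate 2 was close to the Bptf cKO libraries, and the differences were smaller than that of Mrps18b. Without Bptf f/f replicate 2 Mrps18a stood at 0.31, and without Bptf f/f replicate 1 Mrps18c stood at 0.15.

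The stalks, which recruit translation factors and guide the outgoing tRNA, were near control. Mrpl12, the message for the multi-copy stalk protein that contacts elongation factors, was at 1058 and 1275 normalized counts in Bptf f/f and 1221 and 1308 in Bptf cKO (log2 0.12). Mrpl10, which anchors it, was at 965 and 1005 against 991 and 1037 (log2 0.04), and Mrpl11, at the stalk base, was at 728 and 761 against 662 and 783 (log2 -0.05). Mrpl1, of the opposite stalk, was at 474 and 588 against 552 and 577 (log2 0.10), and Mrpl54 was at 615 and 660 against 669 and 705 (log2 0.11). Of these 5, the libraries separated for Mrpl54 alone. Without Bptf f/f replicate 1 Mrpl12 and Mrpl1 stood at -0.01 and -0.06, without Bptf f/f replicate 2 at 0.26 and 0.25, and Mrpl11 was 0.00 after recentring the libraries. Mrpl53, the remaining stalk gene, had 5.43 and 1.39 normalized counts against 3.90 and 1.41 and was not tested.

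A pair of genes with small subunit names encode proteins that were later placed elsewhere. Mrps30, whose product lies in the large subunit, was at 690 and 852 normalized counts in Bptf f/f and 751 and 777 in Bptf cKO (log2 -0.01), and it was 0.05 after recentring and 0.02 after quantile normalization. Mrps36, whose product is a component of the 2-oxoglutarate dehydrogenase complex, was at 136 and 125 against 114 and 130 (log2 -0.10, and 0.04 after quantile normalization).

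Levels between genes were compared per kilobase of the longest annotated coding transcript, which need not be the one these cells make. Ranks per kilobase depend on that choice. The highest large subunit genes were Mrpl52, of the central protuberance, at 1705 normalized counts per kilobase in Bptf f/f and 2027 in Bptf cKO, and Mrpl42 at 1686 and 1786. The highest small subunit genes were Mrps15, a platform protein, at 1083 and 1222, and Mrps21, also of the platform, at 1004 and 1002. At the other end stood Mrpl17, a protein of the exit tunnel rim, at 135 and 133, and Mrps25 at 110 and 117. Their lengths were taken as 7300 and 6073 bases. Before division by length, Mrpl17 was at 915 and 1051 normalized counts in Bptf f/f, above the medians of the 77 genes (690 and 761). Of the exonic bases of Mrps25, 69.8% are also covered by Nr2c2, a nuclear receptor gene on the opposite strand, so its level is uncertain. Median levels per kilobase were 565 in Bptf f/f and 593 in Bptf cKO for large subunit genes and 375 and 427 for small subunit genes. Across the 77 genes the log2 difference was nearly unrelated to the Bptf f/f level (Spearman's rho -0.10), transcript length (-0.05) or GC content (-0.02). These are descriptions across genes of the same 4 libraries, and genes are not independent replicates.

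**Figure D4:**
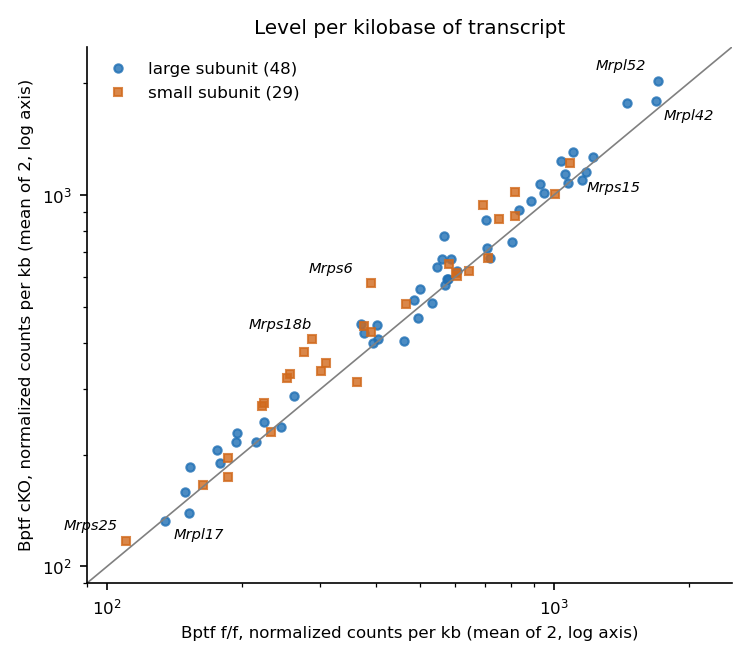
Normalized counts per kilobase of transcript in Bptf cKO (vertical axis) against Bptf f/f (horizontal axis), means of 2 libraries on log axes, for 48 large (blue circles) and 29 small (orange squares) subunit genes with the line of equality in grey. Levels run from 110 for Mrps25 to 1705 for Mrpl52 in Bptf f/f, and most points lie close to or above the line, with Mrps6 at 389 and 579 and Mrps18b at 287 and 409 among the farthest from it.

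The 77 genes were spread over 17 chromosomes, with 11 on chromosome 11 and 8 on chromosome 17. Among them 18 (23.4%) had the start of another protein-coding gene on the opposite strand within 1000 bases upstream, beside 10.2% of 12496 tested coding genes. In 11 of the 18 pairs both genes differed in the same direction. Mrps18b starts 45 bases from Ppp1r10, a regulatory subunit of protein phosphatase 1, whose log2 difference was 0.38 (adjusted p = 0.270 in limma). Mrps12, the counterpart of the decoding protein S12, starts 172 bases from Sars2, the mitochondrial seryl-tRNA synthetase, and the pair stood at -0.07 and 0.37. The 45 genes without exon overlap had a median log2 difference of 0.14, and 24 of them (53.3%) had both Bptf cKO libraries above control. The 32 with exon overlap had a median of 0.04, and 11 of them (34.4%) had both above. The share over all genes tested was 23.2%.

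Promoter windows from 250 bases before to 50 after the annotated start were taken from RefSeq (GRCm38.p6) for 68 of the 77 genes, 42 large and 26 small subunit genes with 74 windows in all. Motifs were searched on both strands, and none of them contains another. The ETS motif CCGGAAG, the core bound by factors such as GABPA, stood in 33.8% of the windows, beside 8.86% of 32851 RefSeq windows of the same length. The NRF1 motif GCGCANGCG stood in 21.6% beside 6.25%, and the YY1 motif AAGATGGCG in 10.8% beside 1.40%. At least 1 of these motifs stood in 55.4% of the windows, beside 14.8%. The E-box CACGTG stood in 9.46% beside 7.15%, the CRE TGACGTCA in 2.70% beside 1.79%, the GC box GGGCGG in 52.7% beside 35.7%, and the CARE motif TTGCATCA in 0 of 74 beside 0.895%. Some genes have several windows, and the 7 windows with an E-box belonged to 5 genes. The 32851 windows were not limited to genes tested in LSK cells, so a higher share cannot be called particular to these genes. Genes with the ETS motif had a median log2 difference of 0.15 (25 genes) and those without it 0.10 (43 genes), while for NRF1 the medians were 0.07 (16 genes) and 0.14 (52 genes). Such a match is a description of the letters and not a measured binding site. The stretches below hold a match to the ETS, NRF1, YY1 or CRE motif upstream of the start and outside annotated exons. They were sought among the genes with the largest differences and the S18 paralogs. Matches to the E-box, CARE motif and GC box were not sought for them. Each stretch has at most 60 bases, with the match in capitals.
Mrpl16, chr19:11770331-11770390, plus strand, CRE: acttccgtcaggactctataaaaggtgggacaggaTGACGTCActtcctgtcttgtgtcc
Mrps18a, chr17:46110926-46110985, plus strand, ETS: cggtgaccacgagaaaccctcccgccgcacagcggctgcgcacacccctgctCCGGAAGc
Mrps18c, chr5:100798599-100798626, plus strand, ETS read on the other strand: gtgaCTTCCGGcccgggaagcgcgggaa

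Genes that act with the mitochondrial ribosome were compared from fixed lists. Of 5 mitoribosome proteins with other symbols, 1 was higher and 4 were lower, with a median log2 difference of -0.05 (0.01 after recentring, and -0.21 and 0.12 without Bptf f/f replicates 1 and 2). Dap3, a GTP-binding protein of the small subunit, was at 2072 and 2342 normalized counts in Bptf f/f and 1888 and 1980 in Bptf cKO (log2 -0.19), and Aurkaip1 had the highest difference (0.22). Of 14 translation factors, 9 were higher and 5 lower (median 0.06, and 0.00 and 0.13 without Bptf f/f replicates 1 and 2). Guf1, a GTPase of mitochondrial elongation, had the lowest difference at 2031 and 1850 against 1546 and 1297 (log2 -0.45, limma adjusted p = 0.205), and Lrpprc, which stabilizes mitochondrial messages, the highest (0.26). Of 26 assembly factors, 16 were higher and 10 lower (median 0.06, and 0.12 and 0.02 without Bptf f/f replicates 1 and 2), from Mrm2 at -0.36 to Mrm3 at 0.48, both of which methylate mitochondrial ribosomal RNA. Of 17 mitochondrial tRNA synthetases, 11 were higher and 6 lower (median 0.13, but 0.05 without Bptf f/f replicate 1 and 0.01 without Bptf cKO replicate 2), from Hars2 at -0.28 to Sars2 at 0.37. Of 12 genes for the expression and upkeep of mitochondrial DNA, 5 were higher and 7 lower (median -0.06, and 0.03 without Bptf f/f replicate 1), from Mterf2 at -0.59 to Top1mt at 0.40. Of 9 nuclear regulators of mitochondrial genes, 6 were higher and 3 lower (median 0.06, and 0.01 and 0.12 without Bptf cKO replicates 1 and 2). Myc was at 7199 and 4685 against 7173 and 6861 (log2 0.27), and the sparse Ppargc1a at 45.7 and 81.8 against 27.3 and 11.3 (log2 -1.74, limma adjusted p = 0.253). None of the genes in these lists passed an adjusted p under 0.05 in limma, edgeR or DESeq2, and the unadjusted limma p was under 0.05 for 2 of them upward (Top1mt and Sars2) and 2 downward (Guf1 and Ppargc1a).

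The other ribosome and the products of the respiratory chain gave a frame for these values. Of 87 cytosolic ribosomal protein genes, 62 were higher and 25 lower, with a median log2 difference of 0.07 and none called by limma, edgeR or DESeq2, from Rpl6l at -1.75 to Rpl3l at 0.88. Both are sparse, with at most 50.4 and 24.0 normalized counts in a library. The count of cytosolic genes lower was 14 after recentring and 31 after quantile normalization, and the median was 0.02 without Bptf f/f replicate 1 or Bptf cKO replicate 2 and 0.11 without Bptf f/f replicate 2. Of 80 nuclear respiratory chain and ATP synthase genes, 55 were higher and 25 lower (median 0.09, but 0.00 and 0.17 without Bptf f/f replicates 1 and 2 and 0.04 without Bptf cKO replicate 2). A lone gene of them passed the limma test, Cox6a2, a cytochrome c oxidase subunit of heart and skeletal muscle, at 37.2 and 11.1 normalized counts in Bptf f/f and 2197 and 1817 in Bptf cKO (log2 6.54, limma SE 0.55, adjusted p = 0.0222). It was the only one that edgeR called, while DESeq2 called 2 more higher and none lower. These were Uqcrq, a subunit of complex III, at 1037 and 976 against 1536 and 1552 (log2 0.62, limma adjusted p = 0.0819), and Cox4i2, a cytochrome c oxidase subunit, at 43.4 and 105 against 215 and 308 (log2 1.91, limma adjusted p = 0.158). The lowest was Atp5s at -0.72. The 13 messages of mitochondrial DNA, the templates of the mitochondrial ribosome, lay the other way: 13 of 13 were lower, with a median of -0.31, and 12 of 13 were lower after quantile normalization. mt-Co1, a cytochrome c oxidase subunit, was at 103252 and 98213 normalized counts in Bptf f/f and 87444 and 75076 in Bptf cKO (log2 -0.31), and its genotypes did not overlap. Of the 13, 4 (30.8%) had both Bptf cKO libraries below both Bptf f/f libraries, beside 23.8% of all genes tested. None of the 13 passed an adjusted p under 0.05 in limma, edgeR or DESeq2. The extremes among all 23 tested mitochondrial transcripts were the sparse mt-Nd3 (-0.62) and mt-Tt (0.39). The median of the 13 messages depended on the libraries used, and it was 0.01 without Bptf cKO replicate 2. It was -0.57 without Bptf cKO replicate 1, and -0.12 and -0.50 without Bptf f/f replicates 1 and 2. Between the replicate 1 libraries alone the median was -0.19, and between the replicate 2 libraries it was -0.39. Of the 13 messages, 12 were lower in both of these comparisons. The mitochondrial ribosomal RNAs stood at -0.03 (mt-Rnr1) and -0.26 (mt-Rnr2).

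**Figure D5:**
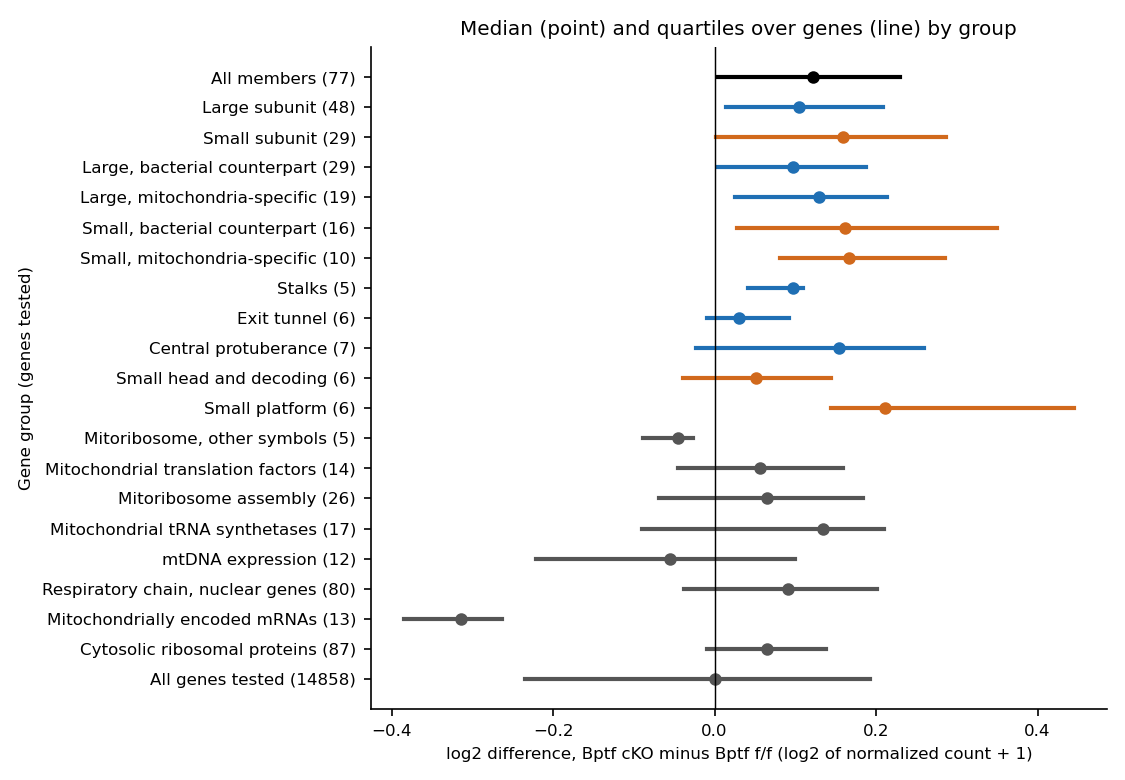
Median (points) and quartiles over genes (lines) of the log2 difference between Bptf cKO and Bptf f/f (horizontal axis) for the mitochondrial ribosomal protein genes and their subgroups (black, blue and orange) and for the lists of other genes (grey), with the number of genes tested in brackets. The medians of both subunits, 0.10 and 0.16, lie right of 0, that of the small subunit platform is 0.21, and that of the mitochondrially encoded messages is -0.31.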

How the data were processed

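RNA-seq of sorted LSK cells was analysed in 4 libraries, 2 per genotype, grouped and numbered by the sample labels. The labels call the controls only "control", and the paper's text names them Bptf f/f. The submitters' processing notes name HISAT2, featureCounts and DESeq2 with the builds GRCm38 and mm10, and the annotation, the strand setting and the treatment of reads that map to several genes are not given in the sources used here. The values the authors deposited are a signal per gene, gene counts after scaling by 1 size factor for each library (normalized counts). Further deposited columns held their own log2 fold change, its standard error, a test statistic, a p-value and an adjusted p-value, and were not used. All per-library columns were used (0 left out). Each value was a whole multiple of 1 read (100% within 0.01), so reads were recovered. The spread between 2 libraries, each a pool of 5 mice, also holds counting error, which was not separated from it.

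Genes with a mean of at least 10 were compared on log2 (normalized count + 1) with limma 3.58.1 (R 4.3.3, two-sided, with a mean-variance trend and no factor but genotype, Benjamini-Hochberg over all 14858 genes). Differences on this scale slightly understate those of low genes. edgeR 4.0.16 (quasi-likelihood, TMM) and DESeq2 1.42.0 were run on the recovered reads as alternatives. The p-values measure the spread between these pooled libraries. Transcript lengths, exon overlap and neighbors came from GENCODE vM21, and promoter windows from RefSeq. The length of a gene was that of its longest coding transcript, or of its longest transcript where none codes. The code of the fits was tried on simulated data with the same spread for every gene and no effect of replicate number. Those data bear on the code and not on the results here. The members, gene lists, motifs and tests were chosen with earlier results of these data known. Named genes were the 8 largest rises and 5 largest falls among members with non-overlapping libraries (1 fall qualified), the 2 highest and the lowest per kilobase in each subunit, the S18 paralogs and stalks, Mrps30 and Mrps36, and in other lists those passing the test or the extremes. Mrps33, Mrps26, Mrps27, Mrps11 and Mrps12, and the further examples from other lists, were chosen after their values were seen. Summaries and plots were made in Python 3.11.15 with pandas 2.3.3, numpy 2.4.6 and matplotlib 3.10.9. Values of the LSK marker list beyond Kit and Ly6a are not reported here.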

Additional observations from a re-analysis of the deposited data

How the results depend on the processing

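The median log2 difference of the 77 genes stayed above 0 in every alternative run, between 0.0588 and 0.221, as did those of the large (0.0248 to 0.203) and small (0.0824 to 0.242, and from 0.0937 with a library left out) subunits, and the gap of large minus small stayed below 0 (-0.0689 to -0.0243 with a library left out). No member was called lower in any fit. The replicate numbers match across genotypes, but no source says that a number marks a shared day or batch. Deviations of same-numbered libraries correlated at 0.452 over all genes tested and 0.548 over the 77. With the replicate number as a block, limma called 7 members higher and 0 lower, beside 896 and 1242 of all 14858 genes tested. The 7 were Mrps6, Mrps18b, Mrps16, Mrpl16, Mrps28, Mrps5 and Mrps17. With the block, edgeR called 7 and limma after removal of GC content and length called 5, where the fit without the block called 0. In the other lists the block fit in limma called 5 nuclear respiratory chain genes higher and 2 lower, 1 cytosolic ribosomal gene each way, Sars2 higher (adjusted p = 0.0437), and Guf1 (0.00777), Ppargc1a (0.0392), mt-Nd2 (0.0205) and mt-Nd4 (0.0177) lower. The edgeR and GC fits with the block and the use of 1 replicate number alone were chosen after seeing the data.

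Leaving out a library gave 36 to 61 members above and 4 to 21 below, where fewer libraries are needed to separate. The share of all genes tested that separates with a library left out is not given, so these counts cannot be read as an excess. Replicate 1 alone gave 64 above and 13 below, with a gap between the subunits of -0.0231, and replicate 2 alone gave 47 above, 30 below and a small subunit median of 0.0824. Removing GC content and length gave 3 members below and a gap of -0.0151 (-0.0151 with the block). Adding the 5 mitoribosome genes with other symbols gave 3 below and a gap of -0.0327, and leaving out members with exon overlap gave 0 below. With a library left out, adjusted-p counts ran from 0 to 0. Members had 74 or more reads per library, and how far counting error adds to their small differences was not tested. Having 2 libraries per genotype limits every comparison.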

Other observations

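Other marker lists gave values that enter no comparison above. B and plasma cell markers summed to 5496 and 2172 normalized counts in Bptf f/f and 3181 and 2815 in Bptf cKO, stromal markers to 103 and 149.7 against 35.1 and 77.6, and Cd4, the only T cell marker listed of 5, was at 126 and 90.1 against 79.9 and 50.8.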
